A study of Sus scrofa with 105 samples.

Results

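ssc-miR-374a-5p, ssc-miR-545-5p and ssc-miR-505 are 3 of the 448 porcine microRNAs (miRNAs) counted in brain libraries of female piglets (Sus scrofa) after diffuse traumatic brain injury. They had been grouped as miRNAs raised early after injury, and were found here by their names; the label implies that they were chosen by their levels early after injury relative to sham. The counts fit that description for 2 of them: miR-374a-5p and miR-505 were higher at 1 day than in sham animals in both brain regions, whereas miR-545-5p was lower in both. The members are therefore called by their names below. Because of that choice, the values of 1 day or cyclosporin A animals against sham, and of 1 week against 1 day, are given as descriptions without a test.

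The 105 libraries came from fixed, paraffin-embedded tissue of the frontal lobe or of the hippocampus with the amygdala, from 53 animals, 52 of which gave both regions. The injured groups were untreated piglets at 1 day (10 frontal and 10 hippocampus and amygdala libraries), piglets given cyclosporin A and studied at 30 h (9 and 10), and untreated piglets at 1 week, meaning 6 to 8 days (15 and 15). Sham and naive animals, pooled in 1 group by the labels and followed for 0 to 8 days, gave 18 and 18. Cyclosporin A (CsA), a calcineurin inhibitor that also acts on the mitochondrial permeability pore, was given intravenously at 20 mg/kg/day, as a loading dose at 6 h and then an infusion over 24 h. The sources used here give no age, and list no injured untreated group at 30 h, so CsA animals were set against the 1 day animals, which differ from them in time as well as in treatment.

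A miRNA is cut from a hairpin whose 5p and 3p arms can each yield a mature strand, which guides silencing of messenger RNAs. In the RefSeq annotation of the pig genome (Sscrofa11.1) all 3 hairpin genes were on chromosome X. MIR374A and MIR545 are neighbours inside the long noncoding RNA gene LOC102165633, which also holds MIR374B and MIR421. In human the same hairpins sit in FTX, a noncoding gene of the X inactivation centre. In human cell studies miR-374a has been described as targeting WNT pathway inhibitors, and in mouse fibroblasts miR-505 has been described as targeting the splicing factor gene Srsf1.

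All 3 were of low abundance. Averaged over all libraries of a region, miR-374a-5p stood at 35.0 CPM (counts relative to the library total as scaled by the TMM method) in the frontal lobe and 28.2 CPM in the hippocampus and amygdala, rank 159 and 168 of 448. miR-505 averaged 13.4 and 16.8 CPM, rank 191 and 186, and miR-545-5p averaged 7.46 and 7.35 CPM, rank 219 and 212. miRNAs whose names begin with let-7 or miR-98 took most of the counts, from 73.5% ± 1.94 in hippocampus and amygdala at 1 day (SD, n = 10) to 80.4% ± 3.10 in sham frontal lobe (SD, n = 18). That share also counts other miRNAs whose longer numbers begin the same way as miR-98.

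Libraries held between 98008 and 12703535 counts (median 7257404), and totals differed between the groups. In the frontal lobe the geometric mean total at 1 day was 2.44 times the sham one (permutation test, two-sided, adjusted p = 0.0035 over 8 comparisons) and 2.09 times in the hippocampus and amygdala (permutation test, adjusted p = 0.0016). CsA totals were 2.16 times those of sham in the frontal lobe (exact permutation test, adjusted p = 0.019) and 2.10 times in the hippocampus and amygdala (permutation test, adjusted p = 0.0013). At 1 week the ratios to sham, 1.67 and 1.46, did not pass (permutation tests, adjusted p = 0.17 in each region), nor did those of CsA to 1 day, 0.883 and 1.01 (exact permutation test, adjusted p = 0.28, and permutation test, 0.90). The lowest total belonged to the frontal library of sham replicate 15, where 1 count is worth 15.5 CPM after scaling. It held 1 count of miR-374a-5p and none of miR-545-5p or miR-505, and a count of 0 allows up to 46.6 CPM there (3 counts, counting error only). Without it the differences at 1 day in the frontal lobe were 0.58 (log2) for miR-374a-5p, -0.89 for miR-545-5p and 0.74 for miR-505.

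In the frontal lobe miR-374a-5p spanned 24.7 to 63.7 CPM (median 39.3) at 1 day, 23.5 to 79.9 CPM (median 43.4) after CsA, 17.7 to 43.6 CPM (median 25.7) at 1 week and 8.12 to 74.2 CPM (median 26.0) in sham. Hippocampus and amygdala libraries spanned 24.9 to 61.6 CPM (median 40.5) at 1 day, 17.8 to 40.0 CPM (median 29.3) after CsA, 10.5 to 47.8 CPM (median 24.9) at 1 week and 6.83 to 37.4 CPM (median 23.5) in sham. The groups overlapped in both regions. At 1 day, 9 of 10 frontal libraries and 10 of 10 hippocampus and amygdala libraries lay above the sham median, and 5 of the 10 from the hippocampus and amygdala lay above the highest sham library there. One frontal sham library, at 74.2 CPM, was higher than every 1 day library.

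Mean miR-374a-5p was 43.0 ± 13.6 CPM at 1 day (SD, n = 10) and 28.3 ± 15.0 CPM in sham frontal lobe (SD, n = 18), a log2 difference of 0.56 (SE 0.21). The hippocampus and amygdala had 39.9 ± 12.8 CPM at 1 day (SD, n = 10) and 23.0 ± 7.18 CPM in sham (SD, n = 18), a log2 difference of 0.79 (SE 0.18). CsA animals averaged 49.5 ± 20.4 CPM in the frontal lobe (SD, n = 9) and 30.3 ± 6.77 CPM in the hippocampus and amygdala (SD, n = 10), with log2 differences from sham of 0.77 (SE 0.22) and 0.39 (SE 0.18). Means at 1 week were 29.0 ± 8.07 and 25.3 ± 9.56 CPM (SD, n = 15 each), below those of 1 day by 0.57 (SE 0.22) and 0.65 (SE 0.19) on the log2 scale. From the highest group mean down, the order was CsA, 1 day, 1 week and sham in the frontal lobe and 1 day, CsA, 1 week and sham in the hippocampus and amygdala.

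miR-505 had 12.3 to 21.8 CPM (median 18.8) at 1 day, 10.4 to 27.3 CPM (median 16.9) after CsA, 3.59 to 25.1 CPM (median 11.1) at 1 week and 0 to 22.4 CPM (median 9.45) in sham frontal lobe. Hippocampus and amygdala libraries had 14.6 to 25.9 CPM (median 21.2) at 1 day, 14.5 to 29.8 CPM (median 23.5) after CsA, 3.39 to 25.4 CPM (median 15.9) at 1 week and 5.67 to 21.4 CPM (median 11.1) in sham. Every 1 day and every CsA library in both regions was above the sham median of its region. The groups still overlapped, as the highest sham libraries reached 22.4 and 21.4 CPM. The spread among animals was narrowest at 1 day, with an SD of log2 CPM of 0.23 in the frontal lobe, and 0.24 for the hippocampus and amygdala, against 0.68 and 0.72 at 1 week.

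Mean miR-505 was 18.2 ± 2.70 CPM at 1 day (SD, n = 10) and 10.3 ± 5.43 CPM in sham frontal lobe (SD, n = 18), a log2 difference of 0.73 (SE 0.20). Means in the hippocampus and amygdala were 21.0 ± 3.31 CPM at 1 day (SD, n = 10) and 12.6 ± 5.22 CPM in sham (SD, n = 18), a log2 difference of 0.69 (SE 0.19). After CsA miR-505 averaged 17.3 ± 5.06 CPM (SD, n = 9) and 22.7 ± 5.60 CPM (SD, n = 10), with log2 differences from sham of 0.66 (SE 0.21) and 0.80 (SE 0.19). One week means were 11.7 ± 5.30 and 15.1 ± 5.78 CPM (SD, n = 15 each), below 1 day by 0.61 (SE 0.21) and 0.46 (SE 0.20) on the log2 scale.

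miR-545-5p went the other way. In the frontal lobe it had 3.89 to 6.24 CPM (median 4.54) at 1 day, 3.39 to 10.1 CPM (median 7.61) after CsA, 4.56 to 21.4 CPM (median 6.06) at 1 week and 0 to 25.2 CPM (median 6.93) in sham. Hippocampus and amygdala libraries had 2.66 to 10.2 CPM (median 5.51) at 1 day, 2.20 to 10.3 CPM (median 5.03) after CsA, 4.64 to 11.8 CPM (median 6.75) at 1 week and 2.80 to 12.6 CPM (median 8.90) in sham. All 10 frontal libraries and 9 of 10 hippocampus and amygdala libraries at 1 day lay below the sham median of their region. These levels rest on few counts: the median library held between 27 and 60 counts of miR-545-5p, depending on the group.

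Its mean was 4.83 ± 0.886 CPM at 1 day (SD, n = 10) and 8.81 ± 5.98 CPM in sham frontal lobe (SD, n = 18), a log2 difference of -0.90 (SE 0.24). Hippocampus and amygdala means were 5.67 ± 1.95 CPM at 1 day (SD, n = 10) and 8.95 ± 2.90 CPM in sham (SD, n = 18), a log2 difference of -0.66 (SE 0.21). CsA animals averaged 7.30 ± 2.11 CPM in the frontal lobe (SD, n = 9) and 5.52 ± 2.40 CPM in the hippocampus and amygdala (SD, n = 10), with log2 differences from sham of -0.32 (SE 0.25) and -0.70 (SE 0.22). At 1 week the means were 7.68 ± 4.30 and 7.77 ± 2.67 CPM (SD, n = 15 each), above 1 day by 0.64 (SE 0.25) and 0.42 (SE 0.22) on the log2 scale.

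For scale, 44.7% of the 284 miRNAs tested in the frontal lobe differed between 1 day and sham in either direction (edgeR quasi-likelihood test, adjusted p under 0.05), 18.7% being higher and 26.1% lower. In the hippocampus and amygdala 48.6% of 290 differed, 28.3% being higher and 20.3% lower. The split between directions depends on the scaling: it was 53 higher and 74 lower with TMM and 74 and 63 with RLE in the frontal lobe, and 82 and 59 with TMM and 69 and 70 with RLE in the hippocampus and amygdala. Between CsA and sham the shares were 34.2% in the frontal lobe, and 20.3% for the hippocampus and amygdala, and between 1 week and 1 day they were 35.9% and 29.3%. In bulk tissue, fewer cells of a type and less of a miRNA per cell cannot be told apart.

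**Figure D1:**
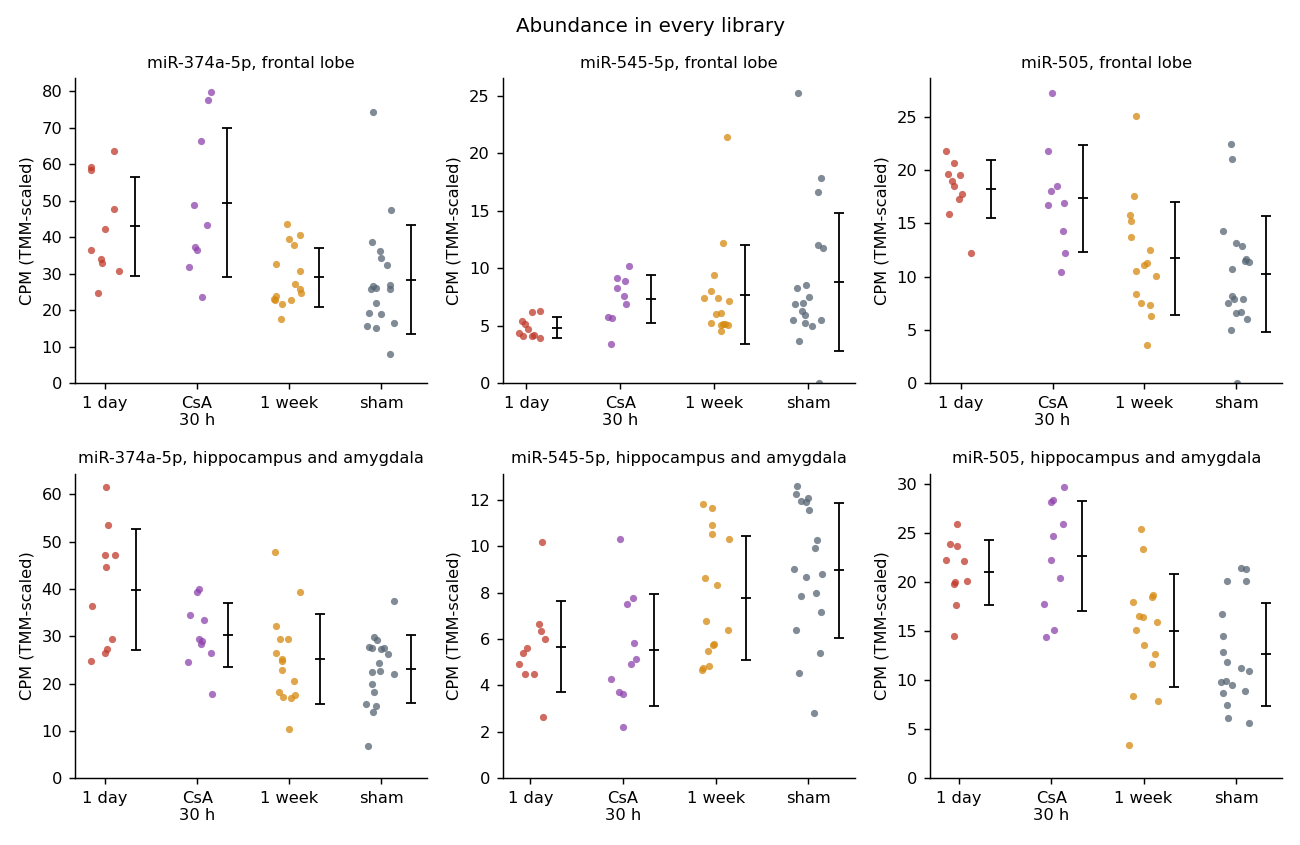
CPM (TMM-scaled) of miR-374a-5p, miR-545-5p and miR-505 in every library, by group, with the frontal lobe above and the hippocampus and amygdala below; points are libraries and bars show the mean and SD. The 1 day libraries of miR-505 sit between 12.3 and 25.9 CPM over both regions, and those of miR-545-5p in the frontal lobe lie below 6.93 CPM, the sham median.

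The opposite directions of miR-374a-5p and miR-545-5p can also be read within a library, where scaling cancels. The ratio of their counts (0.5 added to each) had a median of 7.76 at 1 day, 6.47 after CsA, 4.22 at 1 week and 3.31 in sham frontal lobe. In the hippocampus and amygdala the medians were 7.36 at 1 day, 5.96 after CsA, 2.98 at 1 week and 2.90 in sham. At 1 day 8 of 10 frontal libraries, at 5.94 to 14.5, and 5 of 10 hippocampus and amygdala libraries, at 4.12 to 10.4, exceeded the highest sham ratio, which was 6.49 in the frontal lobe and 6.40 in the other region. Every 1 day library was above the sham median ratio of its region. This ratio is built from the comparison by which the miRNAs were chosen and is a description.

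**Figure D2:**
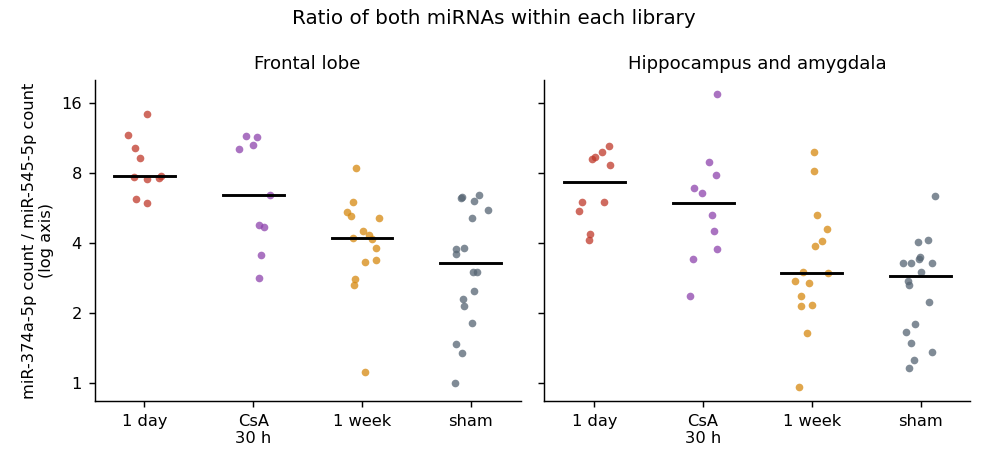
Ratio of the miR-374a-5p count to the miR-545-5p count within each library on a log axis, by group and region; points are libraries and lines are medians. The 1 day median is 7.76 in the frontal lobe, and 7.36 for the hippocampus and amygdala, against 3.31 and 2.90 in sham.

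At 1 week none of the members passed a test against sham in either region when all animals entered. In a subset of animal codes (14 to 17) miR-505 passed, at 0.70 and 0.71 on the log2 scale in the frontal lobe and the hippocampus and amygdala. Both comparisons use sham animals that also entered the choice of the members, which may have shifted these values. In the frontal lobe the log2 differences were -0.00 (95% interval -0.39 to 0.38, adjusted p = 0.998) for miR-374a-5p, -0.27 (-0.70 to 0.16, adjusted p = 0.96) for miR-545-5p and 0.11 (-0.26 to 0.49, adjusted p = 0.998) for miR-505. In the hippocampus and amygdala they were 0.14 (-0.20 to 0.47, adjusted p = 0.76), -0.24 (-0.62 to 0.15, adjusted p = 0.74) and 0.23 (-0.12 to 0.59, adjusted p = 0.74), by edgeR's quasi-likelihood test. In the frontal lobe miR-374a-5p stood at 0.42 (SE 0.24) within codes 10 or 11 and 0.32 (SE 0.23) within codes 14 to 17, neither passing. Frontal sham animals with codes 12 or 13, which no 1 week animal carries, had a median of 38.6 CPM of it. Those with codes 10 or 11 had 21.9 CPM and those with codes 14 to 17 had 22.5 CPM. Among all miRNAs, 0% of 284 in the frontal lobe passed by edgeR (19 at an unadjusted p under 0.05, 1 by DESeq2) and 0.345% of 290 in the hippocampus and amygdala. As ratios to sham over all animals, the highest upper bound of these intervals was 1.50, for miR-505 in the hippocampus and amygdala, and the lowest lower bound was 0.617, for miR-545-5p in the frontal lobe.

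CsA against untreated injury at 1 day gave no call for any of the members. This comparison shares the 1 day animals with the choice of the members, which may have shifted its values. miR-545-5p in the frontal lobe had the widest gap, at 7.30 ± 2.11 CPM after CsA (SD, n = 9) and 4.83 ± 0.886 CPM at 1 day (SD, n = 10), with a log2 difference of 0.59 (95% interval 0.05 to 1.13). Its edgeR p of 0.034 had an adjusted p of 0.93 over 284 miRNAs. miR-374a-5p in the hippocampus and amygdala had 30.3 ± 6.77 CPM after CsA and 39.9 ± 12.8 CPM at 1 day (SD, n = 10 each), with a log2 difference of -0.40 (-0.81 to 0.02, edgeR adjusted p = 0.22). The log2 differences of the others were 0.20 (-0.29 to 0.70) for miR-374a-5p and -0.07 (-0.55 to 0.40) for miR-505 in the frontal lobe, and -0.04 (-0.51 to 0.43) for miR-545-5p and 0.11 (-0.32 to 0.54) for miR-505 in the hippocampus and amygdala. Over all miRNAs the share passing was 0% in both regions by edgeR. At an unadjusted p under 0.05 there were 12 in the frontal lobe, and 69 for the hippocampus and amygdala, and DESeq2 called 0 and 15.

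**Figure D3:**
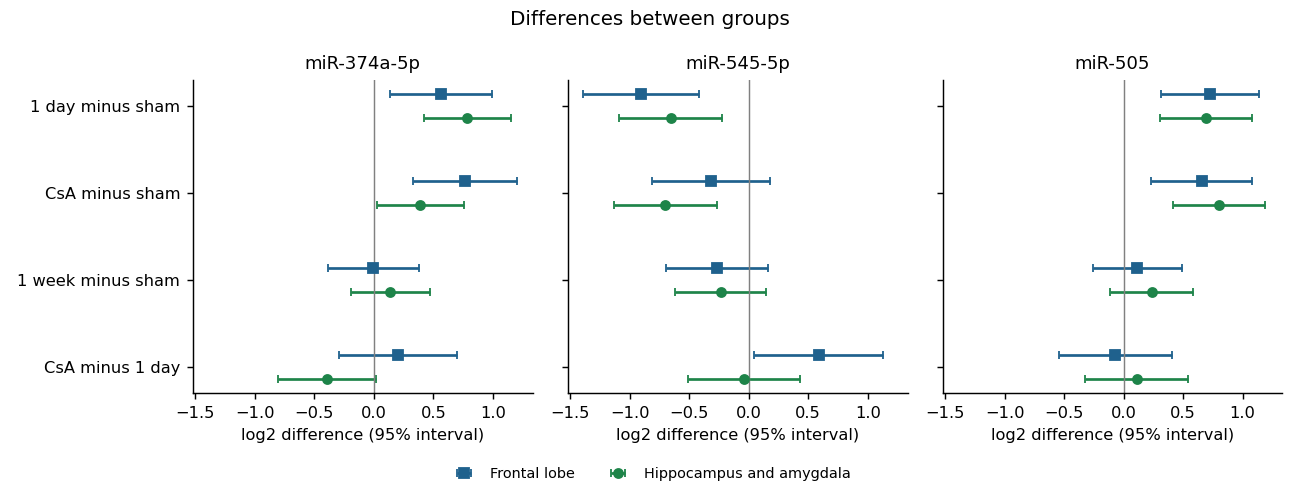
Log2 differences between groups with 95% intervals for each of the miRNAs, in the frontal lobe (squares) and the hippocampus and amygdala (circles). miR-374a-5p and miR-505 lie right of 0 and miR-545-5p left of 0 in both early comparisons with sham, and all 6 intervals of 1 week minus sham include 0.

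Regions were compared within animals, over the 52 with both, with animal as a block. The CsA animal with no frontal library was left out of that fit. The log2 differences come from that fit, in which both regions were scaled together. Counts of animals compare CPM scaled within each region, so an offset between these scales enters them. In CsA animals miR-374a-5p was lower in the hippocampus and amygdala than in the frontal lobe, with a log2 difference of -0.68 (SE 0.20, edgeR adjusted p = 0.0032) and lower values in 8 of 9 animals. miR-545-5p was also lower there, with a log2 difference of -0.57 (SE 0.24, edgeR adjusted p = 0.041), in 7 of 9 animals. miR-505 was higher there, by 0.33 (SE 0.15, edgeR adjusted p = 0.049), in 9 of 9 animals, the smallest difference in log2 CPM being 0.0494. That call was lost with RLE size factors (edgeR adjusted p = 0.079) and without the abundance filter (edgeR adjusted p = 0.12). Region differences were common, as 57.0% of the 298 miRNAs tested passed in CsA animals. Without the block the values for miR-545-5p (-0.51, edgeR adjusted p = 0.097) and miR-505 (0.32, adjusted p = 0.28) no longer passed.

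In untreated animals miR-505 passed at 1 week, higher in the hippocampus and amygdala by 0.33 (SE 0.12, edgeR adjusted p = 0.026) and in 12 of 15 animals, where 43.0% of all miRNAs passed. Without the block it stood at 0.31 (adjusted p = 0.22), and without the abundance filter at 0.29 (adjusted p = 0.066). At 1 day it was higher there in 9 of 10 animals, but by 0.10 (SE 0.14, adjusted p = 0.59), and in sham in 12 of 18 animals, by 0.19 (SE 0.12, adjusted p = 0.19). With CPM scaled within each region, the median difference at 1 day was 0.21 (log2), against 0.10 from the fit. The 12 sham animals include that of frontal sham replicate 15, a library with no counts of miR-505. miR-374a-5p had log2 differences of -0.22 at 1 day (SE 0.19, adjusted p = 0.37), -0.28 at 1 week (SE 0.16, adjusted p = 0.14) and -0.34 in sham (SE 0.15, adjusted p = 0.063), none of which passed. miR-545-5p differed by 0.08 (95% interval -0.38 to 0.53) at 1 day, -0.00 (-0.38 to 0.38) at 1 week and -0.02 (-0.39 to 0.35) in sham. At 1 day 46.6% and in sham 47.3% of all miRNAs passed.

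Whether an injured group differed from sham by unequal amounts in the regions was tested directly. No interaction of a member passed, the nearest being miR-545-5p after CsA, at -0.54 (95% interval -1.15 to 0.07, edgeR adjusted p = 0.26). miR-374a-5p after CsA stood at -0.34 (-0.84 to 0.16, adjusted p = 0.41). The CsA interactions of all miRNAs gave 0% calls by edgeR, 73 at an unadjusted p under 0.05 and 29 by DESeq2.

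The deviations of an animal from its group mean were compared between its regions over the 52 animals. For miR-505, Spearman's rho was 0.663 (permutation p = 2e-05, the smallest that 100000 resamples can give, adjusted over 3 relations to 6e-05) and Pearson's r was 0.386 (permutation p = 0.033, adjusted p = 0.083), or 0.647 without the 2 animals farthest from the median. For miR-374a-5p rho was 0.250 (adjusted permutation p = 0.11) and r 0.268 (adjusted permutation p = 0.083). For miR-545-5p rho was 0.142 (adjusted permutation p = 0.32) and r 0.0906 (adjusted permutation p = 0.50). The log totals of an animal's libraries went together as well, with r = 0.903 over the same animals. Both regions of an animal also share its code, described below. Sham medians of miR-505 were 14.3 CPM (frontal lobe) and 20.1 CPM (hippocampus and amygdala) with codes 12 or 13. They were 7.94 and 9.53 CPM with codes 10 or 11, and 7.71 and 10.4 CPM with codes 14 to 17. The part of totals and codes in these relations was not tested.

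The relation of log2 CPM with log10 library total was computed inside the 1 week and the sham group, 12 relations in all. At 1 week (15 libraries a region) miR-505 was higher in libraries with more counts, with r = 0.736 and rho = 0.668 in the frontal lobe (adjusted permutation p = 0.0070 and 0.037). In the hippocampus and amygdala r was 0.785 and rho 0.836 (adjusted permutation p = 0.0014 and 0.0026). Leaving out the 2 farthest totals, r was 0.704 and 0.738. In sham frontal lobe r was 0.858 (adjusted permutation p = 0.0065) and rho 0.564 (adjusted permutation p = 0.046), but r was 0.385 without the 2 farthest totals, so the size of that relation rests on them. In sham hippocampus and amygdala r was 0.416 (adjusted permutation p = 0.14) and rho 0.515 (adjusted permutation p = 0.075).

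miR-545-5p had the opposite sign at 1 week, with r = -0.736 and rho = -0.657 in the hippocampus and amygdala (adjusted permutation p = 0.0091 and 0.037; r = -0.674 without 2) and r = -0.431 in the frontal lobe (adjusted permutation p = 0.17). In sham its r was -0.0449 in the hippocampus and amygdala (adjusted permutation p = 0.95) and 0.698 in the frontal lobe (adjusted permutation p = 0.13; 0.266 without 2). miR-374a-5p had r = 0.189 and 0.554 at 1 week (adjusted permutation p = 0.60 and 0.079, frontal lobe and hippocampus and amygdala), and 0.417 and 0.0970 in sham (adjusted permutation p = 0.15 and 0.66).

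With log10 total as a covariate the 1 day minus sham difference of miR-505 was 0.34 (log2) in the frontal lobe, and 0.37 for the hippocampus and amygdala, against 0.73 and 0.69 without it. For miR-374a-5p it was 0.31 and 0.60, against 0.56 and 0.79, and for miR-545-5p -0.78 and -0.50, against -0.90 and -0.66. All 6 kept their sign. The part of depth in the group differences cannot be told apart from that of injury by this covariate, since totals and groups move together.

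**Figure D4:**
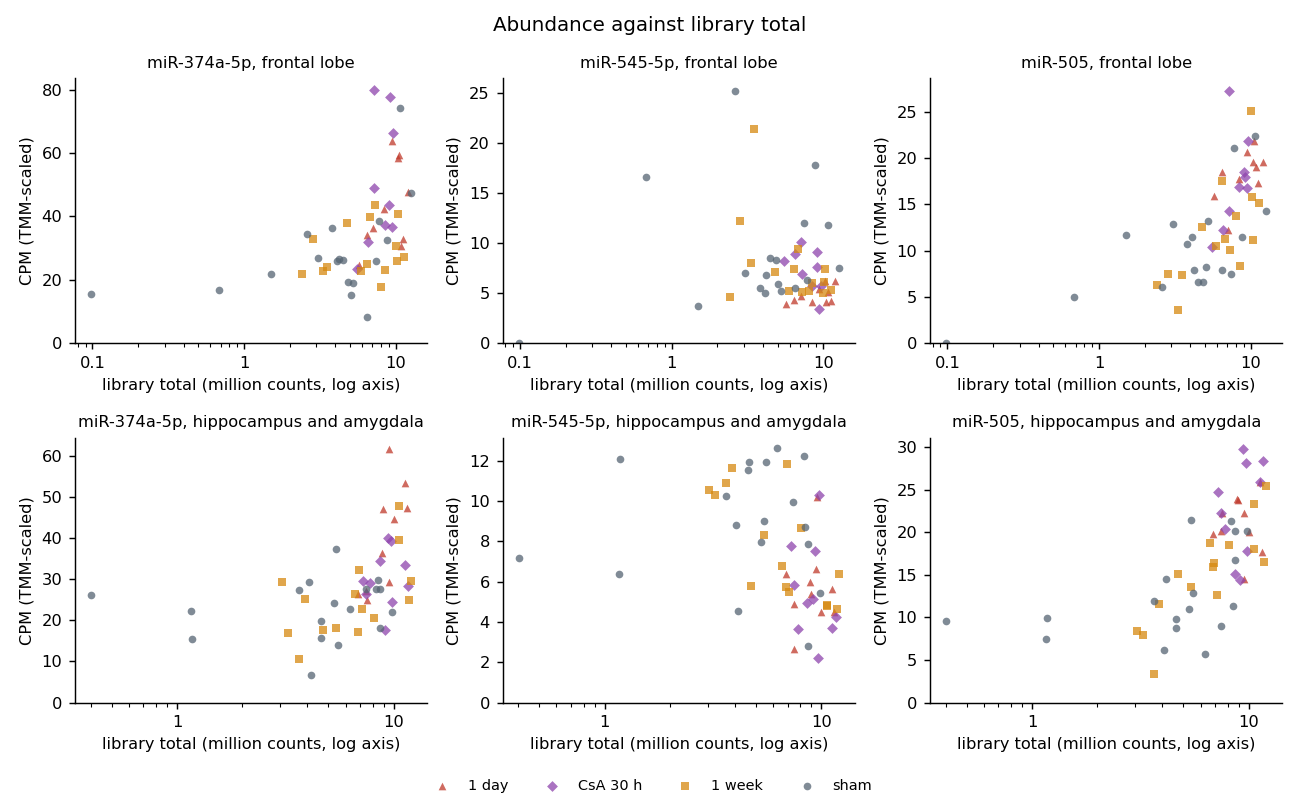
CPM (TMM-scaled) of each of the miRNAs against the library total on a log axis, by group and region. In the 1 week libraries miR-505 climbs with the total (r = 0.736 in the frontal lobe, and 0.785 for the hippocampus and amygdala) while miR-545-5p declines with it in the hippocampus and amygdala (r = -0.736).

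Animal codes in the library names begin with digits from 10 to 17 whose meaning the labels do not state. The 1 day and CsA animals carry codes 11, 12 or 13, and the 1 week animals 10, 11, 14, 15 or 17. Sham animals carry codes 10, 11, 12, 13, 14 or 16. Codes 10, 14 and 16, with 1, 3 and 3 sham libraries in each region, occur in no 1 day or CsA animal. The early comparisons over all animals include these sham libraries. Among animals with codes 11, miR-505 at 1 day exceeded sham by 0.97 (log2, SE 0.28) in the frontal lobe and 1.11 (SE 0.29) in the hippocampus and amygdala. Among those with codes 12 or 13 the differences were 0.32 (SE 0.21) and 0.09 (SE 0.14). The sham animals of these codes were themselves high: hippocampus and amygdala libraries with codes 12 or 13 had 17.7 to 25.9 CPM at 1 day (median 20.2) and 16.8 to 21.4 CPM in sham (median 20.1; 5 libraries each). Sham animals with codes 10 or 11 had 5.67 to 14.5 CPM there (median 9.53, 7 libraries).

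miR-374a-5p and miR-545-5p kept their sign in both code sets. At 1 day against sham miR-374a-5p stood at 0.59 (SE 0.26) and 0.77 (SE 0.32) with codes 11, and at 0.29 (SE 0.30) and 0.71 (SE 0.21) with codes 12 or 13 (frontal lobe first, hippocampus and amygdala second). miR-545-5p stood at -1.03 (SE 0.35) and -0.53 (SE 0.37) with codes 11, and at -0.98 (SE 0.33) and -0.59 (SE 0.34) with codes 12 or 13. At 1 week against sham, miR-505 within codes 14 to 17 was higher by 0.70 in the frontal lobe (SE 0.23, edgeR adjusted p = 0.032; 23.7% of 270 miRNAs passed) and by 0.71 in the hippocampus and amygdala (SE 0.17, edgeR adjusted p = 0.019; 7.38% of 271 passed). Within codes 10 or 11 it stood at -0.08 (SE 0.28) and 0.40 (SE 0.32), and 0% of miRNAs passed by edgeR (18 and 22 at an unadjusted p under 0.05). The difference between code sets was not tested.

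Code sets and totals also moved together at 1 week. Frontal libraries with codes 14 to 17 had a median total of 8491780 and a median of 13.7 CPM of miR-505, and those with codes 10 or 11 had 3422500 and 7.44 CPM. The relations with total were therefore recomputed within codes 10 or 11 and within codes 14 to 17, with 6 to 9 libraries each, a check added after seeing the data. None of the 24 passed (exact permutation tests, lowest adjusted p = 0.31 for r and 0.47 for rho). With so few libraries, above all in the sets of 6, the tests had little room to pass after adjustment. They cannot decide whether a relation with the total remains within codes. At 1 week r of miR-505 was 0.573 and 0.301 in the frontal lobe (codes 10 or 11, then 14 to 17) and 0.782 and 0.628 in the hippocampus and amygdala. For miR-545-5p in the hippocampus and amygdala r was -0.972 and -0.265, with rho of -0.429 and -0.183.

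The other strands of the locus that holds MIR374A and MIR545 had a range of differences from sham. miR-374b-5p, from the hairpin next to MIR545, was higher at 1 day: 5.09 ± 1.53 CPM at 1 day (SD, n = 10) and 2.94 ± 1.87 CPM in sham frontal lobe (SD, n = 18), with a log2 difference of 0.64 (SE 0.23, edgeR adjusted p = 0.023). Its hippocampus and amygdala levels were 5.58 ± 1.50 CPM at 1 day (SD, n = 10) and 3.33 ± 1.26 CPM in sham (SD, n = 18), a log2 difference of 0.73 (SE 0.21, edgeR adjusted p = 0.0041). miR-421-3p, the most abundant strand of the locus at 328.2 CPM in the frontal lobe and 433 CPM in the hippocampus and amygdala over all libraries, passed in the hippocampus and amygdala at 0.30 (SE 0.07, edgeR adjusted p = 0.00099) and stood at 0.18 in the frontal lobe (SE 0.08, adjusted p = 0.055). miR-374a-3p, the partner strand of miR-374a-5p, stood at 0.26 (SE 0.17, edgeR adjusted p = 0.20) and 0.32 (SE 0.14, adjusted p = 0.051), and miR-374b-3p at 0.31 (SE 0.38) and 0.33 (SE 0.38).

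After CsA miR-374a-3p was higher than sham in the frontal lobe by 0.59 (log2, SE 0.18, edgeR adjusted p = 0.0094) and stood at -0.03 (SE 0.14, adjusted p = 0.88) in the hippocampus and amygdala. The difference between these values, -0.70 (SE 0.22), did not pass (edgeR adjusted p = 0.069). Within CsA animals miR-374a-3p was lower in the hippocampus and amygdala than in the frontal lobe, with a log2 difference of -0.77 (SE 0.17, edgeR adjusted p = 0.00016), the same direction as miR-374a-5p. miR-545-3p and miR-421-5p were too scarce to test in either region. miR-545-3p averaged 0.52 CPM at 1 day and 0.43 CPM in sham frontal lobe, and 0.36 CPM at 1 day and 0.35 CPM in sham hippocampus and amygdala.

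**Figure D5:**
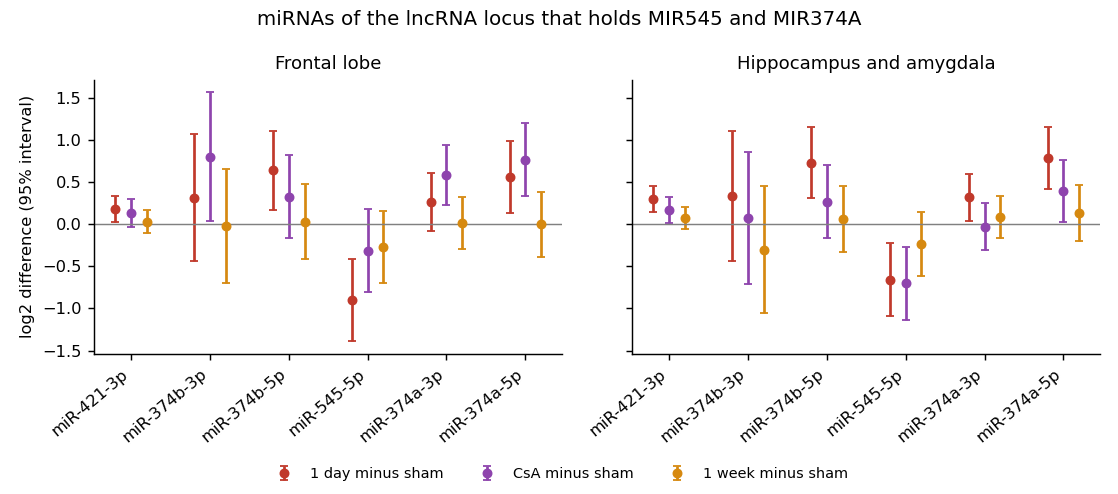
Log2 differences from sham with 95% intervals at 1 day, after CsA and at 1 week for 6 miRNAs of the lncRNA locus that passed the abundance filter, set apart by region. miR-545-5p is the one with negative differences in both early groups and both regions, at -0.90 and -0.66 at 1 day.

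Among miRNAs whose hairpins all lie on chromosome X, the other 38 in the table gave 30 tested in the frontal lobe. Of these 4 were higher and 4 lower at 1 day, with a median log2 difference of -0.10 beside -0.04 over all miRNAs. Of all miRNAs there, 18.7% were higher and 26.1% lower. In the hippocampus and amygdala 32 of the 38 were tested, and 7 were higher and 2 lower, with a median of 0.03 beside 0.07. There 28.3% of all miRNAs were higher and 20.3% lower. At 1 week none of the 38 passed in either region by edgeR. The members aside, the naming rule picked miR-374b-5p, higher at 1 day in both regions as given above, and miR-542-5p, lower in both. miR-542-5p stood at -0.94 in the frontal lobe (log2, SE 0.17, edgeR adjusted p = 3.2e-05) and at -0.69 in the hippocampus and amygdala (SE 0.18, edgeR adjusted p = 0.0013).

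Across the libraries of a region (52 frontal, 53 hippocampus and amygdala), which share groups and depth, miR-374a-5p and miR-505 went together with a Spearman's rho of 0.659 and 0.559. miR-545-5p and miR-505 had -0.279 and -0.554, and miR-374a-5p and miR-545-5p had 0.112 and -0.279. These values mix the groups by which the members were chosen. As deviations from the group means, the pairs had 0.480 and 0.269 (miR-374a-5p with miR-505), -0.168 and -0.380 (miR-545-5p with miR-505), and 0.248 and -0.01 (miR-374a-5p with miR-545-5p). Of 195 miRNAs averaging at least 10 CPM, those most like miR-374a-5p were miR-137, miR-9 and miR-29a-3p, with a mean rho over the regions of 0.823, 0.791 and 0.767. Those most like miR-505 were miR-30c-5p, miR-15b and miR-9, at 0.803, 0.802 and 0.792. miR-545-5p had weaker companions, miR-101, miR-450a and miR-142-3p, at 0.650, 0.594 and 0.583.

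Marker miRNAs of cell types moved in part at 1 day, and their part in the members' differences was not tested. The summed level of 4 miRNAs of neurons had medians of 29359 CPM at 1 day and 26508 CPM in sham frontal lobe, and of 27777 CPM at 1 day and 23541 CPM in sham hippocampus and amygdala, with overlapping ranges. In both regions 2 of the 4 were higher (miR-9 at 0.60 and 0.74, miR-137 at 0.45 and 0.63, log2) and 1 lower (miR-124a at -0.47 and -0.33), by edgeR. Of 3 oligodendrocyte miRNAs 2 were lower in the frontal lobe and none passed in the hippocampus and amygdala. Of the erythrocyte miRNAs miR-486 was lower in the frontal lobe and miR-451 higher in the hippocampus and amygdala, 1 of 2 and 1 of 3 tested, and their summed medians were 107 and 163 CPM at 1 day and 155 and 220 CPM in sham, frontal lobe first. Of 4 leukocyte miRNAs none passed in the frontal lobe and 2 were higher in the hippocampus and amygdala, with summed medians between 147 and 164.5 CPM in all groups and regions. Of 2 endothelial miRNAs, the strands of miR-126, 1 was higher in the frontal lobe and both in the hippocampus and amygdala at 1 day. In the hippocampus and amygdala, where 29.3% of all miRNAs differed between 1 week and 1 day, both strands were lower at 1 week. Their summed medians were 6573 CPM at 1 day and 5646 CPM in sham frontal lobe, and 5578 CPM at 1 day and 4408 CPM in sham hippocampus and amygdala, with overlapping ranges. Of 3 skeletal muscle miRNAs tested, 1 was lower at 1 day in each region.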

How the data were processed

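The authors deposited 1 table of counts, whole numbers that are not normalized, with a row for each mature miRNA entry of the pig and a column for each library; libraries were prepared with the QIAseq miRNA kit per the labels' protocols. Trimmomatic 0.39 and cutadapt 1.9.1 were used, per the submitters' processing notes; the sources used here do not give the aligner or annotation, nor say if molecular identifiers were used. Of 542 entries, 89 held no counts; entries of 1 mature name were reduced to the one with the highest total, and near-identical rows were merged, giving 448 miRNAs (miR-9 stands for the row named miR-9-1).

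Groups came from the labels and animals from the code in the library names. That code counts 53 animals, where the series text speaks of 50 subjects. Names, chromosomes and host genes came from RefSeq Sscrofa11.1, used without coordinates because the files name no build. No sequences were printed.

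Each region was fitted with all 4 groups in edgeR 4.0.16 (R 4.3.3; TMM scaling, filterByExpr with minimum count 10 and minimum total 15, robust quasi-likelihood test, Benjamini-Hochberg threshold 0.05). Both regions were fitted together with animal as a block, the same code marking the regions of an animal. DESeq2 1.42.0, other scalings and filters, a depth covariate, code subsets, the fit without the block and leaving out single libraries were alternatives. Permutation tests used 100000 resamples or all arrangements, with scipy 1.17.1 for the library totals and numpy 2.4.6 for the relations. The edgeR fits were tested on simulated data. Intervals are 95%. The members and lists were chosen with earlier results of these data known. The named miRNAs are the members, the other strands of their hairpins and locus, the 3 most alike for each member, and the 2 largest called increases and decreases on chromosome X. miRNAs that share a seed with a member were not looked up, since that needs sequences.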

Additional observations from a re-analysis of the deposited data

Results flagged for a closer look

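One value stood apart from its group among the 12 groups of 9 or 10 libraries checked, where chance flags about 1 in 20 groups. miR-545-5p had 10.2 CPM in the hippocampus and amygdala of 1 day replicate 2, from 116 counts in a library of 9529224, and the other 9 libraries of the group had 2.66 to 6.63 CPM. The gap to the next library was 0.473 of the group's range, just above Dixon's 95% critical value for 10 libraries. Without this library, miR-545-5p at 1 day was -0.81 from sham on the log2 scale (SE 0.22), against -0.66 with it, and CsA minus 1 day was 0.12, against -0.04.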

How the results depend on the processing

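The early differences from sham, which carry no test, kept their direction for all members under every alternative run, including each left-out library. One moved by more than its replicate spread: miR-505 at 1 day in the hippocampus and amygdala was 0.0855 among codes 12 or 13. Of 180 recomputed values of tested results (single left-out libraries aside), 156 kept direction and side of the threshold. The calls on region differences were lost as follows. Without the replicate block (animals unpaired), miR-545-5p after CsA was -0.51, miR-505 after CsA 0.32 and miR-505 at 1 week 0.31. Without the abundance filter, miR-505 was 0.29 after CsA and 0.29 at 1 week, and with RLE size factors 0.30 after CsA. The other 9 region and 9 interaction results kept their side of the threshold without the block. For miR-505 at 1 week against sham, the subset with codes 14 to 17 passed, at 0.70 in the frontal lobe, and 0.71 for the hippocampus and amygdala. The cause of these shifts was not tested.

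Directions turned in results that did not pass and stood near 0 before the setting was changed. miR-374a-5p at 1 week against sham in the frontal lobe (-0.00) was 0.0087 without let-7 and miR-98, 0.0271 without the filter, 0.041 without merging, 0.42 in codes 10 or 11 and 0.32 in codes 14 to 17; leaving out single libraries gave -0.0663 to 0.148. miR-505 there was -0.078 with total as covariate and -0.082 in codes 10 or 11, and -0.0093 to 0.225 over left-out libraries. miR-505 in CsA minus 1 day was 0.0058 in the frontal lobe with the covariate and, within codes 11, -0.165 in the hippocampus and amygdala. miR-545-5p in CsA minus 1 day in the hippocampus and amygdala was -0.162 to 0.118 over left-out libraries. Its region difference in sham was 0.0227 without the filter and 0.001 by DESeq2. Its interaction was -0.0071 at 1 day without the filter, and at 1 week -0.0244 with RLE, -0.0581 without the filter and -0.0268 by DESeq2. The miR-374a-5p interaction at 1 week was -0.0237 without the filter.

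Over all miRNAs, calls at 1 day against sham numbered 127 (frontal lobe) and 141 (hippocampus and amygdala), but 56 and 57 with the covariate and 0 and 0 by edgeR within codes 12 or 13 (61 and 53 at an unadjusted p under 0.05), against 91 and 112 within codes 11. CsA against sham gave 97 and 59, but 20 and 2 with the covariate. A correction for GC content was not run, since no sequences were at hand. Depth limits miR-545-5p most, with a median of 27 to 60 counts a library.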
